A study of Mus musculus with 6 samples.

Results

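The transcription factor NRF2 (gene Nfe2l2), its inhibitor KEAP1, the adaptor SQSTM1 and 7 enzymes that remove reactive carbonyls, quinones, peroxides and haem were followed in mouse oocytes that had lost the histone demethylase LSD1 (gene Kdm1a). The 10 genes are Nfe2l2, Keap1, Sqstm1, Glo1, Akr1b8, Ptgr1, Nqo1, Gpx1, Txnrd1 and Hmox1, found by symbol among the 23284 symbols of the count tables, and all 10 were among the 12935 genes that passed the filter on low counts. They were chosen by their levels in the same 6 libraries, that is, with the fold changes of this comparison known. Their levels, fold changes and calls are therefore given as a description of these libraries and support nothing further.

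The oocytes were at the germinal vesicle stage, the prophase arrest that precedes meiotic maturation. They were taken from antral follicles of females 4 to 6 weeks old on a mixed C57BL/6 and 129 background, 48 hours after 5 IU of gonadotrophin from pregnant mares. The genotype was Lsd1 KO in 3 samples and Control in 3, with 100 oocytes in each, lysed directly and amplified as cDNA before sequencing. The labels state neither the deleted exons, nor any Cre line, nor the alleles of the Control females. The series design gives 3 biological replicates of each genotype. The labels do not say whether samples of a genotype came from separate animals, so p-values measure only the spread between these samples.

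NRF2 is held low in unstressed cells by KEAP1, which presents it to the CUL3 ubiquitin ligase. When reactive compounds modify KEAP1, or when SQSTM1 occupies it, NRF2 escapes, pairs with a small MAF protein and binds antioxidant response elements, short DNA sequences near the genes of detoxifying and antioxidant enzymes. BACH1 competes for the same elements and is best known for repressing Hmox1. In the oocyte, glutathione and the thioredoxin system buffer the redox state through growth and maturation.

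An exact spelling of the antioxidant response element, TGACTCAGC, was looked for on both strands in the 5000 bases upstream of the most upstream annotated start of each gene (GENCODE M1 on NCBIM37, the assembly of mm9). It was found upstream of 4 of the 10 genes, Ptgr1, Akr1b8, Hmox1 and Sqstm1, and upstream of 7.07% of 22377 protein-coding genes. The matches are shown with 10 bases on each side, each on the strand that reads as the spelling, because they are the stretches in these windows that hold this one spelling. Capitals mark the match.
Ptgr1, chr4:59004128-59004156, plus strand: gctggagatgTGACTCAGCagttaagagc
Akr1b8, chr6:34300147-34300175, minus strand: cattttgggtTGACTCAGCaagatattat
Hmox1, chr8:77613639-77613667, minus strand: gaacagagggTGACTCAGCaaaatctgtc
Sqstm1, chr11:50026425-50026453, plus strand: tggccaagcgTGACTCAGCagtctagtgg
Sqstm1, chr11:50026028-50026056, minus strand: cccatgacttTGACTCAGCaggtctagtc
Sqstm1, chr11:50025667-50025695, minus strand: gaattcctctTGACTCAGCttcccaaggg
Sqstm1, chr11:50024566-50024594, plus strand: ggcctgcctaTGACTCAGCagtgtcgtcc

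Sqstm1 had 4 of the 7 matches, which lay 255, 1356, 1717 and 2114 bases upstream of its start, in introns of the neighbouring gene Mgat4b. The single matches of Ptgr1, Akr1b8 and Hmox1 lay 4155, 3962 and 3841 bases upstream and overlapped no annotated gene. The spelling was settled after 3 others had been tried in the same window. TGAGTCAGC was found upstream of none of the 10 genes and of 5.38% of all protein-coding genes, TGACNNNGC, of which TGACTCAGC is one form, of 8 and 77.9%, and the same letters followed by A of 6 and 37.7%. A match says only that these letters are present.

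**Figure D1:**
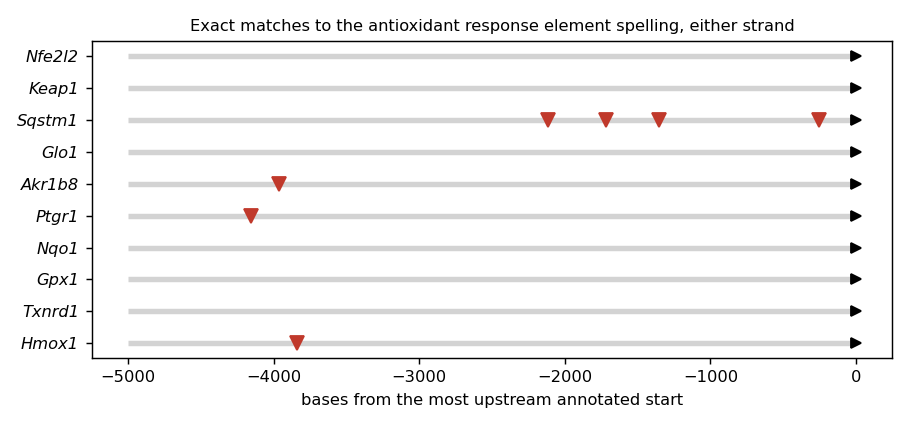
Position of each exact match to TGACTCAGC on either strand (triangles) in the 5000 bases upstream of the most upstream annotated start (right arrowhead) of the 10 genes, with the distance from the start in bases on the horizontal axis. Sqstm1 carried 4 matches, Akr1b8, Ptgr1 and Hmox1 carried 1 each, and the other genes carried none in this window.

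The libraries held 10735422 to 13035045 counts in genes. Kdm1a, which checks the genotype labels, had 47, 31 and 36 counts in the knockout libraries against 799, 962 and 492 in the Control libraries, low in every knockout library. All 12 oocyte markers were detected, with a summed level of 35596 to 39844 CPM (counts scaled to the same library size) in knockout and 25373 to 29788 CPM in Control. The groups did not overlap in this sum, of which Gdf9 alone averaged 15558 CPM in knockout and 6057 CPM in Control. Gdf9 and Oosp1 were called higher and the other 10 were not called (16.7% called, against 21.3% of all genes tested). The median log2 fold change over the 12 was -0.13. Without passing, Zp2 (log2 0.39) was higher in every knockout library than in any Control library. Bmp15 (log2 -0.41) and Nobox (log2 -0.27) were lower in this way. The labelled cell type thus carried its markers in both genotypes, without a shared direction. The libraries are called knockout 1 to 3 and Control 1 to 3 by their replicate numbers. Levels are CPM after TMM scaling, listed for replicates 1, 2 and 3, and fold changes are given on the log2 scale as knockout over Control ± SE (n = 3 per genotype). A gene is called higher or lower where the Benjamini-Hochberg adjusted p of edgeR's quasi-likelihood test over all 12935 genes is under 0.05.

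Of the 10 genes, 9 were called higher in knockout, none was called lower, and Nfe2l2 did not pass. Over all genes tested, 11% were called higher and 10.3% lower, together 21.3%. The same 9 genes were higher in every knockout library than in any Control library, which held for 19.5% of all genes tested, and all 9 were called at least 2-fold higher, as were 7.31% of all genes tested. At least 4-fold higher were 4, Sqstm1, Glo1, Akr1b8 and Ptgr1, against 3.02% of all genes tested. The median log2 fold change of the 10 genes was 1.8 and ran from 0.28 to 2.49, beside -0.01 over all genes tested.

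**Figure D2:**
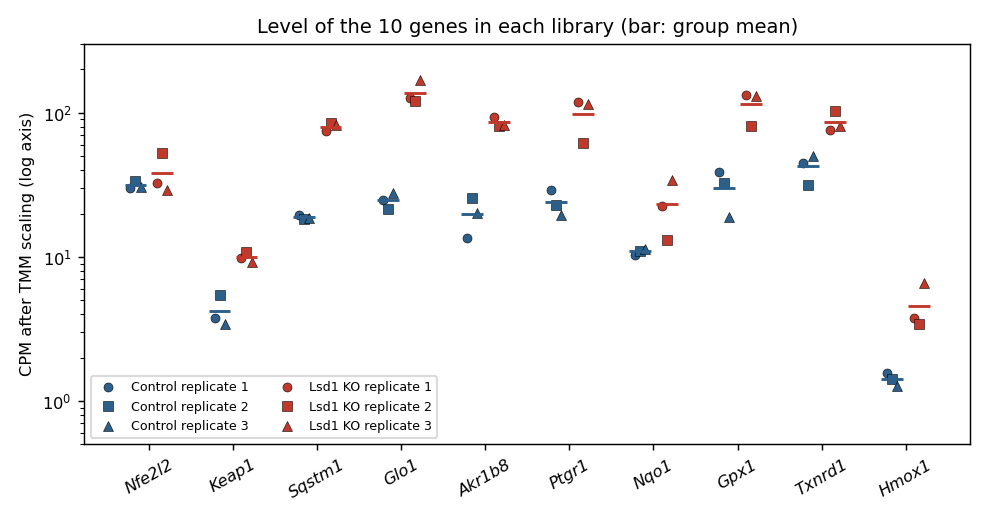
CPM after TMM scaling of the 10 genes in each of the 6 libraries, on a log axis, with Control in blue, knockout in red, a symbol for each replicate and a bar for each group mean. The knockout points lie above all Control points for every gene but Nfe2l2.

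Among the regulators, the message for NRF2 itself overlapped between the genotypes. Nfe2l2 (chromosome 2, 75513570 to 75542698) was at 32.5, 52.8 and 29.0 CPM in knockout and at 30.1, 33.4 and 30.5 CPM in Control. Knockout 2 stood above all other libraries, whereas replicates 1 and 3 lay within or just below the Control range. The log2 fold change was 0.28 ± 0.23, with a 95% interval from -0.23 to 0.79, and it was -0.05 without knockout 2.

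Keap1 (chromosome 9, 21034174 to 21043776), the inhibitor, was at 9.78, 10.8 and 9.16 CPM in knockout and at 3.79, 5.42 and 3.43 CPM in Control. The groups did not overlap, and the log2 fold change was 1.23 ± 0.33. Its counts were low, 102 to 122 in knockout and 38 to 72 in Control. A lincRNA gene on the other strand, Gm16754, shares 510 exon bases with Keap1, and no source used here says whether counting used strand. The call was lost without knockout 1, knockout 2 or Control 1 (edgeR adjusted p up to 0.0686).

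Sqstm1 (chromosome 11, 50012868 to 50024329), the ubiquitin-binding adaptor p62 that links cargo to autophagosomes and binds KEAP1, was at 74.4, 84.6 and 81.6 CPM in knockout and at 19.5, 18.2 and 18.7 CPM in Control. Its libraries lay closer together than those of any other of the 10 genes, with the highest at 1.14 times the lowest in knockout and 1.07 times in Control. The log2 fold change was 2.09 ± 0.18, a 4.26-fold difference. The gene 3010026O09Rik on the other strand shares 580 exon bases with Sqstm1 and was lower, at 54.7 ± 1.78 CPM in knockout against 74.6 ± 15.0 CPM (SD, n = 3), without passing. Mgat4b, whose introns hold the upstream matches, was called higher at 27.0 ± 2.66 against 15.6 ± 1.61 CPM (SD, n = 3; log2 0.79 ± 0.22, edgeR adjusted p = 0.0206).

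The enzymes of carbonyl and quinone metabolism came next, and Glo1 had the largest fold change of the 10. Glyoxalase 1, its product, works with glutathione to clear methylglyoxal, a reactive by-product of glycolysis. Glo1 (chromosome 17, 30729811 to 30749604) was at 127, 120 and 168 CPM in knockout and at 24.7, 21.5 and 27.7 CPM in Control, so that the lowest knockout library was 4.32 times the highest Control library. The log2 fold change was 2.49 ± 0.20, or 5.61-fold, and was the 255th highest among the 12935 genes. A near-identical copy elsewhere in the genome covers 64.8% of the Glo1 transcript at 98% identity or more. No source used here says how reads that match both places were counted. The genes on either side, Btbd9 (log2 -0.11) and Dnahc8 (log2 0.29), were not called.

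Akr1b8 (chromosome 6, 34304119 to 34318463) encodes an aldo-keto reductase that reduces aldehydes with NADPH. Its level was 93.5, 80.8 and 82.5 CPM in knockout and 13.5, 25.5 and 20.2 CPM in Control, without overlap. The log2 fold change was 2.11 ± 0.23, or 4.32-fold, and Control varied more than knockout, with the highest library at 1.89 times the lowest. Of its relatives, Akr1b3 had 0 counts in all 6 libraries, Akr1b7 was at 0.180 CPM in knockout 2 and at 0 in the rest, and Akr1b10 was at 0.812 to 2.42 CPM in knockout and 0.151 to 0.542 CPM in Control, all below the filter. Another place in the genome matches 9.35% of the Akr1b8 transcript at 98% identity or more. With the counting of reads that match several places unknown, the 0 counts of Akr1b3 need not mean absence.

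Ptgr1 (chromosome 4, 58978311 to 58999991), which reduces the double bond of reactive enals and inactivates leukotriene B4, was at 118, 61.3 and 116 CPM in knockout and at 29.1, 22.9 and 19.6 CPM in Control. Knockout 2 was well below the other knockout libraries but above every Control library. The log2 fold change was 2.04 ± 0.26. Nqo1 (chromosome 8, 109912125 to 109927106), the quinone reductase used widely as a readout of NRF2, was at 22.6, 13.2 and 34.1 CPM in knockout and at 10.4, 11.1 and 11.4 CPM in Control. Its knockout libraries spread 2.59-fold and its Control libraries 1.10-fold, and replicate 2 exceeded the highest Control library by a factor of only 1.16. The log2 fold change of Nqo1 was 1.09 ± 0.32, and the call was lost in 5 of the 6 fits that left out 1 library, all but the one without knockout 2 (edgeR adjusted p up to 0.140).

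Gpx1 and Txnrd1 encode selenoproteins: glutathione peroxidase 1 reduces hydrogen peroxide with glutathione, and thioredoxin reductase 1 regenerates thioredoxin in the cytosol. Gpx1 (chromosome 9, 108241607 to 108242671) was at 133, 80.5 and 131 CPM in knockout and at 39.0, 32.6 and 18.9 CPM in Control, with a fold change on the log2 scale of 1.93 ± 0.28. The lowest of its knockout libraries, replicate 2, was 2.06 times the highest Control library. Txnrd1 (chromosome 10, 82296696 to 82360469) was at 75.4, 103 and 80.9 CPM in knockout and at 45.1, 31.6 and 50.5 CPM in Control, with a fold change on the log2 scale of 1.03 ± 0.22. Here knockout 2 was the highest library and Control 2 the lowest.

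Hmox1 (chromosome 8, 77617490 to 77624495), the inducible haem oxygenase, was the least abundant of the 10 genes. It had 47, 38 and 73 counts in knockout, or 3.77, 3.43 and 6.55 CPM, and 17, 19 and 14 counts in Control, or 1.57, 1.43 and 1.26 CPM. The groups did not overlap and the log2 fold change was 1.68 ± 0.47, the widest error among the 10 genes. The call was lost without knockout 3 or any 1 of the Control libraries (edgeR adjusted p up to 0.121).

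**Figure D3:**
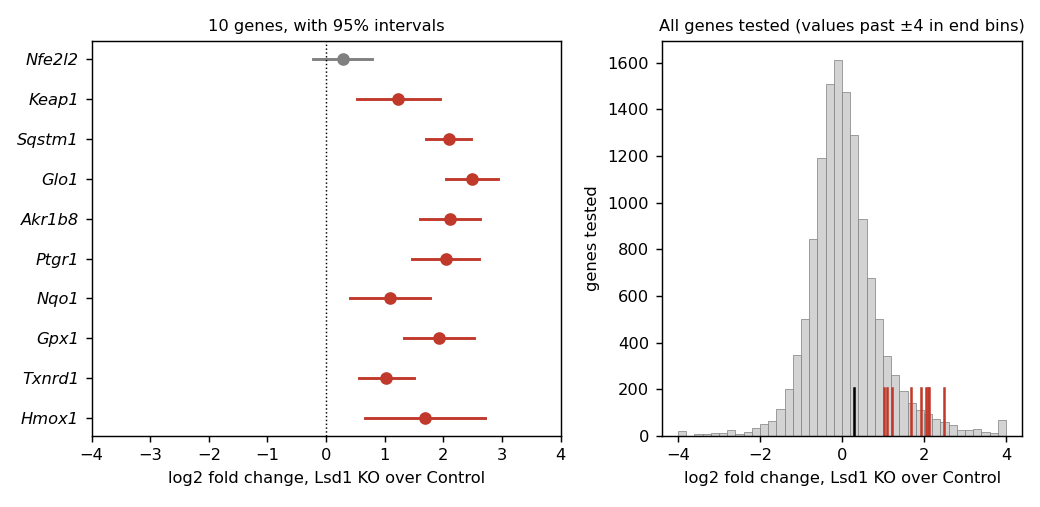
Left, log2 fold change of knockout over Control for the 10 genes with 95% intervals, red where called higher and grey where not. Right, the distribution over all 12935 genes tested, with a tick for each of the 10 genes; the called genes lie from 1.03 to 2.49.

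Divided by union exon length, the order of the levels changed between the genotypes. In Control, Gpx1 was highest at 35.6 ± 12.2 CPM per kb (SD, n = 3), followed by Akr1b8, Glo1, Txnrd1 and Ptgr1, which lay between 10.4 and 13.2 CPM per kb and did not differ from their neighbours beyond their spread. Nfe2l2 (8.25 ± 0.47), Nqo1 (7.04 ± 0.34) and Sqstm1 (5.61 ± 0.19 CPM per kb) followed, each apart from the next by more than its SD, and Keap1 (0.943 ± 0.237) and Hmox1 (0.658 ± 0.071 CPM per kb) were last. In knockout, Gpx1 remained first at 136 ± 35.2 CPM per kb, and Glo1 (71.4 ± 13.3), Akr1b8 (57.1 ± 4.59) and Ptgr1 (42.9 ± 14.0 CPM per kb) came next. Sqstm1 stood at 23.9 ± 1.56 CPM per kb there, level within its spread with Txnrd1 at 21.5 ± 3.59, and above Nqo1 at 15.0 ± 6.75 and Nfe2l2 at 10.03 ± 3.38 CPM per kb. Keap1 and Hmox1 were again lowest, at 2.22 ± 0.188 and 2.12 ± 0.794 CPM per kb.

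Knockout 2 was the lowest knockout library for 6 of the 10 genes: Glo1, Akr1b8, Ptgr1, Gpx1, Nqo1 and Hmox1. The share of all genes tested for which it was the lowest was not counted, so the 6 cannot be read as a trait of these genes. The summed level of 18 immune cell markers was 51.7 CPM in knockout 2 against 341 and 254 CPM in knockout 1 and 3, and 77.8, 29.4 and 114 CPM in Control. Of the 18 markers, 15 were tested and 2, Cd68 and H2-Aa, were called higher (13.3%, against 11% of all genes tested) and none lower. The median log2 fold change of the 15 was 1.71, beside -0.01 over all genes tested. The most abundant, C1qb and Lyz2, averaged 36.9 and 29.0 CPM in knockout and 20.5 and 8.97 CPM in Control. In knockout 2, Lyz2 was at 0.0902 CPM, below every Control library. C1qb (21.1 CPM), H2-Aa (11.5 CPM) and Cd68 (5.86 CPM) lay within their Control ranges there. The immune marker sum of knockout 2 lay within the Control range. Its level over the highest Control library was 4.32 times for Glo1, 3.16 for Akr1b8, 2.11 for Ptgr1 and 1.16 for Nqo1. The 10 genes were chosen by these same levels, and the share of all genes tested that stood as high in knockout 2 was not counted. These factors therefore only describe this library. With the immune marker sum as a covariate, 7 of the 10 genes were called higher, and Nqo1 (log2 0.65, edgeR adjusted p = 0.287) and Hmox1 (log2 1.498, adjusted p = 0.122) were not, beside log2 1.09 and 1.68 without the covariate. Over all genes tested, calls went from 1421 to 775 higher and from 1329 to 612 lower with the covariate. In bulk samples, more cells of a type and more RNA per cell cannot be told apart.

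Markers of granulosa and cumulus cells summed to 438 to 488 CPM in knockout and 140 to 174 CPM in Control. Of the 13 tested, 3 were called higher and 1 lower (30.8%, against 21.3% of all genes tested). Their median log2 fold change was 1.35. Most of the knockout sum was Cyp19a1, aromatase, at 324 ± 82.8 against 36.8 ± 10.97 CPM (SD, n = 3). In Control the largest part was Nr5a2, at 69.4 CPM. Without Cyp19a1 the sums were 120, 83.9 and 199 CPM in knockout and 112, 108 and 125 CPM in Control, lowest in knockout 2. The other granulosa calls were Gja1 and Inha, higher, and Nr5a2, lower at 28.7 against 69.4 CPM. Foxl2 (log2 1.89), Fshr (log2 1.35) and Kitl (log2 -0.24) did not pass. Amh, below the filter, averaged 0.82 CPM in knockout and 0.398 CPM in Control. Markers of theca, stroma and endothelium summed to 87.7 to 105 CPM in knockout and 59.1 to 68.5 CPM in Control. Of 6 tested only Dcn was called (16.7%, against 21.3% of all genes tested), at 7.57 against 0.414 CPM, and the median log2 fold change was 0.54. The most abundant were Pecam1 (60.0 against 48.9 CPM) and Hsd3b1 (22 against 9.37 CPM), and Insl3 had 0 counts. Red cell markers summed to at most 2.08 CPM, with Alas2 and Slc4a1 the most abundant and both alpha and both beta globin symbols at 0 counts. How reads that match several places were counted is not known, so 0 counts of a globin symbol need not mean absence. The part of granulosa and theca markers in the levels of the 10 genes was not tested.

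**Figure D4:**
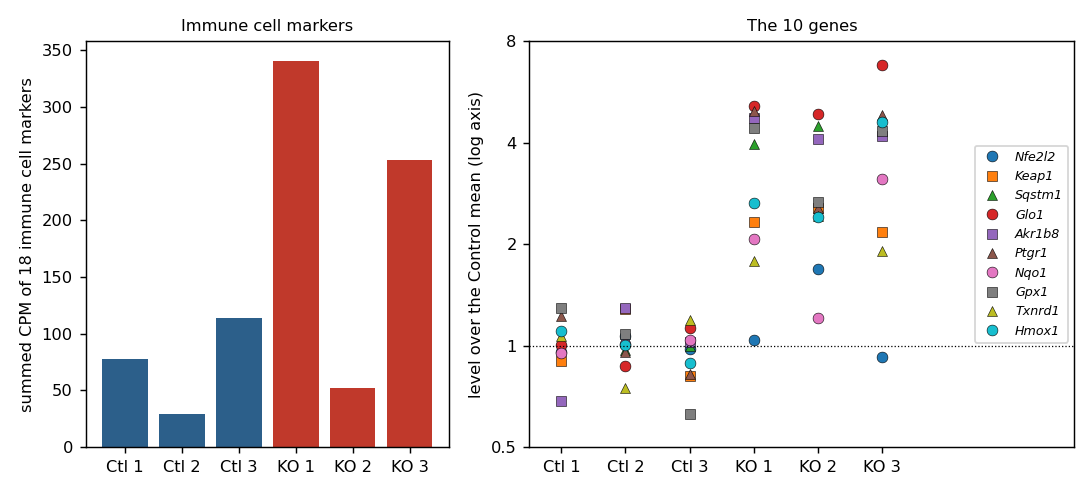
Left, summed CPM of 18 immune cell markers in each library (Ctl, Control; KO, knockout). Right, the level of each of the 10 genes over its Control mean, on a log axis. In KO 2 the immune sum is 51.7 CPM, and the 10 genes lie from 1.20 (Nqo1) to 4.86 (Glo1) times the Control mean. The 10 genes were chosen by these same levels, so the panels only describe the libraries.

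The wider pathway was read from 9 lists holding 187 genes, of which 151 were tested. There were 20 called higher (13.2%, against 11% of all genes tested) and 6 lower (3.97%, against 10.3%), and the median log2 fold change was 0.10. Among 19 tested regulators and partners of NRF2, none was called higher by edgeR (3 at an unadjusted p under 0.05, 2 by DESeq2 and 1 by limma-voom) and 2 were called lower (6 at an unadjusted p under 0.05, 5 by DESeq2 and 2 by limma-voom). The acetyltransferase Ep300, a coactivator that binds NRF2, went from 295 ± 48.9 to 109 ± 2.42 CPM (SD, n = 3; log2 -1.44 ± 0.18, edgeR adjusted p = 2.89e-04). The small MAF gene Mafg went from 9.51 ± 2.31 to 4.00 ± 0.448 CPM (log2 -1.25 ± 0.33, adjusted p = 0.0197), and lost the call without knockout 1, knockout 3 or Control 3 (adjusted p up to 0.0818). The KEAP1 ligase gene Cul3 (log2 -0.54, adjusted p = 0.0605) and the repressor gene Bach1 (log2 0.00) did not pass.

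Genes of glutathione synthesis and conjugation gave 3 higher and 2 lower of 20 tested, with a median log2 fold change of 0.16. That is 25% called, against 21.3% of all genes tested. Glutathione synthetase, Gss, rose from 2.92 ± 0.526 to 7.99 ± 0.833 CPM (SD, n = 3; log2 1.45 ± 0.35, edgeR adjusted p = 0.0122), and the transferases Gstm6 (log2 1.10 ± 0.26) and Gstm5 (log2 0.78 ± 0.19) rose. Gclm, the modifier subunit of the ligase that makes the glutathione precursor and a standard NRF2 target, fell from 62.2 ± 10.4 to 37.4 ± 5.91 CPM (log2 -0.73 ± 0.20, adjusted p = 0.0213). Mgst3, named after its values were seen, also fell (log2 -0.64 ± 0.18). The catalytic subunit Gclc (log2 -0.18), the cystine transporter Slc7a11 (log2 -0.26) and glutathione reductase Gsr (log2 0.39) did not pass. Gclm and Mgst3 each lost the call in 4 of the 6 fits that left out 1 library (adjusted p up to 0.0905 and 0.116), Gclm without knockout 1 and 2 and Control 1 and 2, and Mgst3 without each knockout and Control 1. Gstm6 lost it without knockout 3 (adjusted p = 0.0543).

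Thioredoxin, peroxiredoxin and glutathione peroxidase genes gave 3 higher and none lower of 20 tested (15% called, against 21.3% of all genes tested). Glutaredoxin 2, Glrx2, rose from 6.51 ± 2.20 to 19.8 ± 1.6 CPM (SD, n = 3; log2 1.61 ± 0.31, edgeR adjusted p = 0.00368), with the superoxide dismutase Sod2 (log2 0.78 ± 0.21) and the peroxiredoxin Prdx3 (log2 0.84 ± 0.23). Sod2 lost the call without knockout 3 or Control 2, and Prdx3 without knockout 1 or 3 or Control 2 or 3 (adjusted p up to 0.0794 and 0.0643). Thioredoxin itself, Txn1 (log2 -0.06), Prdx1 (log2 0.02) and the selenoprotein Gpx4 (log2 -0.72) did not pass, and the NRF2 target Srxn1 was at 0 to 0.628 CPM, below the filter. None of 11 genes that supply NADPH was called in either direction by edgeR (1 higher and none lower at an unadjusted p under 0.05, and the same by DESeq2 and by limma-voom), G6pdx (log2 -0.15) and Me1 (log2 -0.06) among them.

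In carbonyl and aldehyde detoxification, 4 of 20 tested genes were higher and none lower (20% called, against 21.3% of all genes tested). The retinaldehyde dehydrogenases Aldh1a2 (log2 1.25 ± 0.26, edgeR adjusted p = 0.00544) and Aldh1a1 (log2 1.74 ± 0.42, 0.0118), the aldehyde reductase Akr1a1 (log2 0.73 ± 0.21, 0.0263) and the carbonyl reductase Cbr1 (log2 0.81 ± 0.26, 0.0434) rose. Akr1a1 lost the call without any 1 knockout library or Control 3, and Cbr1 without any 1 library other than knockout 2 (adjusted p up to 0.0813 and 0.159). The enzyme that follows GLO1, glyoxalase 2 (Hagh), was at log2 0.27 and did not pass. Quinone and xenobiotic enzymes and exporters gave 3 higher and 1 lower of 19 (21.1% called). The exporters Abcc2 (log2 2.55 ± 0.60, from 0.651 to 3.8 CPM) and Abcb1b (log2 0.66 ± 0.17, from 85.4 to 135 CPM) and the acetyltransferase Nat2 (log2 1.06 ± 0.35) rose, and the cytochrome Cyp1b1 fell (log2 -1.48 ± 0.35, from 8.57 to 3.05 CPM). Abcb1b lost the call without knockout 2 or Control 1 or 2 (adjusted p up to 0.0721), and Nat2 in 5 of the 6 such fits, all but that without knockout 2 (up to 0.173). The NRF2 targets Osgin1 (log2 0.05) and Abcc1 (log2 0.11) did not pass.

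Around Hmox1, 2 of 13 tested genes of haem breakdown and iron were higher and none lower (15.4% called, against 21.3% of all genes tested). The ferritin light chain Ftl1 was at 118, 48.2 and 149 CPM in knockout and 52.8, 37.4 and 58.8 CPM in Control (log2 1.08 ± 0.33, edgeR adjusted p = 0.0355), and the iron exporter Slc40a1 at 3.53, 0.902 and 3.23 against 0.462, 0.151 and 0.813 CPM (log2 2.43 ± 0.76, 0.0383). Knockout 2, the library with few immune markers, was lowest of its group for both and fell within the Control range for Ftl1. Each lost the call without knockout 1 or 3 or Control 1 or 2 (adjusted p up to 0.142 and 0.148) and with the immune marker covariate. The ferritin heavy chain Fth1 (log2 0.27) and the constitutive haem oxygenase Hmox2 (log2 -0.47) did not pass.

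Selenoprotein synthesis, on which GPX1 and TXNRD1 depend, gave 3 higher and none lower of 11 tested, with a median log2 fold change of -0.23. That is 27.3% called, against 21.3% of all genes tested. Trnau1ap, which binds the selenocysteine transfer RNA, rose from 7.15 ± 1.32 to 21.99 ± 3.14 CPM (SD, n = 3; log2 1.62 ± 0.26, edgeR adjusted p = 0.00167), and the elongation factor Eefsec rose (log2 0.63 ± 0.20, 0.0386). Sepp1, which encodes the secreted selenium carrier, was at 21.0, 2.25 and 37.4 CPM in knockout and 5.27, 2.34 and 5.06 CPM in Control (log2 2.27 ± 0.69, 0.0351). Its level in knockout 2 was below every Control library, by little from the lowest, so the groups overlapped. Eefsec lost the call in 5 of the 6 fits that left out 1 library, all but that without knockout 2, and so did Sepp1 (adjusted p up to 0.134 and 0.167).

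Beside Sqstm1, autophagy receptors and ATG8 proteins gave 2 higher and 1 lower of 18 tested (16.7% called, against 21.3% of all genes tested). Traf6, a ubiquitin ligase that binds SQSTM1, rose from 4.02 ± 0.611 to 12.7 ± 1.74 CPM (SD, n = 3; log2 1.66 ± 0.31, edgeR adjusted p = 0.00311) and Gabarap, an ATG8 protein, from 9.56 ± 0.908 to 27.2 ± 11.3 CPM (log2 1.51 ± 0.32, 0.00660). The autophagy scaffold Wdfy3 fell (log2 -0.65 ± 0.16, 0.0141) and lost the call without knockout 1 or 3 (adjusted p up to 0.0762). The receptor gene most similar in role to Sqstm1, Nbr1, was at log2 -0.38 and did not pass (adjusted p = 0.139). In the 4 lists where edgeR called no gene lower but some higher, the genes lower at an unadjusted p under 0.05 were 1 for thioredoxins and peroxidases, 1 for carbonyls, none for haem and iron and 2 for selenoprotein synthesis, and neither DESeq2 nor limma-voom called any lower.

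With the immune marker sum as a covariate, 775 of all genes were called higher and 612 lower, against 1421 and 1329 without it. Of the 20 higher list genes, 7 kept the call, Glrx2, Aldh1a2, Abcc2, Traf6, Trnau1ap, Gstm5 and Gstm6, as did Ep300 and Cyp1b1 among the lower ones. Those that lost it include Gss (log2 1.28 with the covariate, edgeR adjusted p = 0.0671), Aldh1a1 (log2 1.345, adjusted p = 0.0935) and Gabarap (log2 0.89, adjusted p = 0.0899), which were called in each fit that left out 1 library. With limma-voom, Ftl1, Slc40a1, Sepp1, Nat2 and Cbr1 were not called, and with the length and GC correction Gstm5, Ftl1, Prdx3, Cbr1, Nat2 and Eefsec were not. Sepp1 was also not called by DESeq2, nor Eefsec with no filter on low counts.

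**Figure D5:**
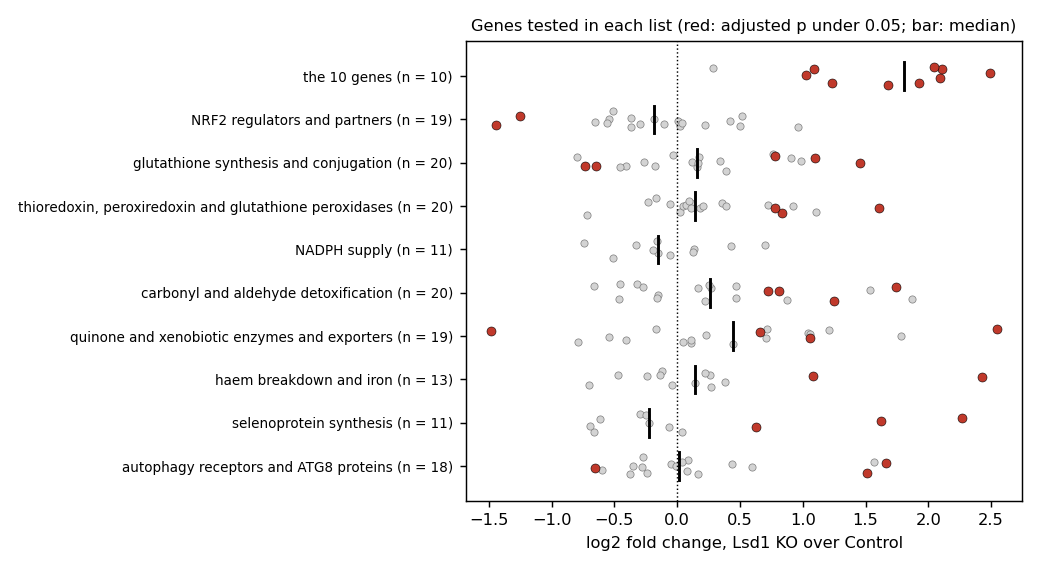
Log2 fold change of knockout over Control for each tested gene of the 10 and of the 9 lists, red where the edgeR adjusted p is under 0.05, with a bar at each median. The median is 1.8 for the 10 genes, which were chosen with this comparison known, and between -0.23 and 0.44 for the lists.

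By the profile over the 6 libraries, the genes most like Glo1, the one of the 10 with the smallest adjusted p, were Dtna, Itgb2l and Gpnmb. Their centred log2 CPM differed from that of Glo1 by a root mean square of 0.149, 0.151 and 0.164 among 12934 genes compared. Dtna was at 38.8, 37.1 and 48.7 CPM in knockout and 6.84, 7.98 and 9.66 CPM in Control. Of the 20 nearest tested coding genes on either side of the 10, looked up after the values of the 10 were seen, 3 were called higher and none lower, where 11% of all genes tested were called higher and 10.3% lower: Mgat4b beside Sqstm1, Bpgm beside Akr1b8 (log2 1.19) and Mcm5 beside Hmox1 (log2 0.84).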

How the data were processed

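RNA was sequenced from 6 samples of 100 oocytes each. Per the labels' protocols, lysates were amplified with the NuGEN Ovation system before paired-end TruSeq library preparation. The authors deposited raw counts per gene symbol, 1 file per sample. Tools listed per the submitters' processing notes were TopHat2 2.0.7, HTSeq 0.5.3p9 and CASAVA 1.8.2, with the build mm9. No source used here gives the counting options.

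Genes were kept by filterByExpr (minimum count 10), scaled by TMM and tested with edgeR 4.0.16 (R 4.3.3) in a two-sided quasi-likelihood test, and p-values were adjusted by Benjamini-Hochberg over every gene tested. SE came from the fold change and the F statistic. The test was checked on simulated data. Replicate pairs differed beyond counting noise (chi-square per degree of freedom 19.8 to 43.6), so no library was a duplicate. Upstream sequence was scanned with Python 3.11.15, and copies were found with BLAST 2.17.0 (matches of at least 50 bases at 98% identity).

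Alternatives were DESeq2 1.42.0 scaling and Wald test, upper-quartile and total scaling, limma-voom 3.58.1, 2 other filters, a replicate block, each library left out, an adjusted p under 0.01, an immune marker covariate, and a length and GC correction (loess, span 0.5, 96.7% of genes). Of 266 list entries, 263 matched by symbol and 2 by synonym. The 10 genes and all lists were chosen with earlier results of these data known. Named were the 10 genes, up to 4 called genes per list by smallest adjusted p, the 2 most abundant markers of each other cell type, and the 3 nearest profiles; further genes described as not passing, as flanking or as other members of a family were chosen after their values were seen.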

Additional observations from a re-analysis of the deposited data

How the results depend on the processing

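The 10 genes kept their direction in all but 1 of 158 values over the alternatives that give a fold change, the exception being Nfe2l2 without Lsd1 KO replicate 2 (log2 -0.049; -0.049 to 0.477 with 1 library left out), and Sqstm1, Glo1, Akr1b8, Ptgr1, Gpx1 and Txnrd1 kept the call in every one. The number of the 10 called higher was 6 at an adjusted p under 0.01, 8 with limma-voom and with the length and GC correction, 7 with the immune marker covariate and 6 to 8 with 1 library left out; at 10 CPM in 3 libraries it was 7, since Keap1 and Hmox1 were not tested there. Nqo1 lost the call with limma-voom, the length and GC correction and the immune covariate. Over all genes, 775 were higher and 612 lower with the immune covariate, 676 and 497 at an adjusted p under 0.01, and 932 to 1466 higher and 638 to 1346 lower with 1 library left out. Over the 9 lists, 7 were higher and 2 lower with the immune covariate, 5 and 1 at an adjusted p under 0.01, 10 lower by the DESeq2 Wald test and 10 lower with the length and GC correction, and 10 to 24 higher and 2 to 11 lower with 1 library left out. The cause of these shifts was not tested. Of 26 other named genes, 88 of 408 values lost the call and none reversed. The replicate block gave 1270 genes higher and 1098 lower, with 9 of the 10 genes higher; Cbr1, Nat2 and Eefsec were not called with it (edgeR adjusted p = 0.0742, 0.0652 and 0.0758). Deviations of same-numbered libraries correlated at -0.029, 0.111 and -0.021, so the numbers were not taken as pairs. The libraries numbered 2 did share some features. Rn45s held 0.895% of counts in knockout 2 against 1.93% and 1.88% in knockout 1 and 3. In Control 2 it held 0.63% against 1.81% and 1.14% in Control 1 and 3. The immune marker sum was also lowest in replicate 2 of each genotype. Whether these libraries shared a batch was not tested. With 14 to 19 counts of Hmox1 and 38 to 72 of Keap1 in Control, depth limits both fold changes.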
